A study of Homo sapiens with 12 samples.

Results

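YKL-06-102 was compared with palbociclib in the cell line MV4-11, which was derived from a human acute myeloid leukaemia and is driven by a fusion of KMT2A together with a mutated, constantly active FLT3 receptor. The comparison rests on 6 of the 12 libraries of the series, the 3 labelled YKL-06-102 and the 3 labelled palbociclib, chosen by the names of their columns in the deposited count table. It covers every expressed gene, which here means 14214 of the 58051 genes listed, those that passed a filter on low counts. Cells had been given 200 nM YKL-06-102 or 200 nM palbociclib for 6 h. The other libraries were 3 from cells given 200 nM BSJ-03-123 and 3 from cells given the vehicle, 0.1% DMSO, also for 6 h, and their values stand beside the comparison to place it. All groups shared the same line and the same RPMI medium with fetal bovine serum, and polyadenylated RNA was sequenced from all of them. The submitters describe YKL-06-102 and BSJ-03-123 as phthalimide conjugates specific for CDK6, and palbociclib as an inhibitor of CDK4 and CDK6. The labels name no structural difference between the conjugates and do not say whether replicate libraries came from separate cultures, so the p-values reflect only how much these libraries varied, and that variation may be technical. RNA was taken from whole cultures of a single line, so fewer cells in a state and less RNA per cell cannot be told apart.

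CDK4 and CDK6 are kinases that bind D-type cyclins in G1 and phosphorylate the retinoblastoma protein RB1. Phosphorylated RB1 releases the E2F transcription factors, which then switch on the genes of DNA replication, and a CDK4/6 inhibitor keeps RB1 bound to E2F. Phthalimides of the thalidomide class bind cereblon, the substrate receptor of a ubiquitin ligase, and conjugates of such a group with a kinase ligand are made to bring the kinase to that ligase for degradation. The comparison asks how the transcripts of cells given such a conjugate differed from those of cells given the catalytic inhibitor at the same dose and time.

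Library totals were 23416204 to 24350966 counts for YKL-06-102 and 20565788 to 24289426 for palbociclib, against 19803323 to 21021137 for BSJ-03-123 and 18764307 to 25539858 for DMSO. Replicate libraries differed by more than sampling noise, with a chi-square per degree of freedom of 1.72 to 2.95 for YKL-06-102 and 1.82 to 2.06 for palbociclib, and DMSO replicate 2 stood apart from its group with values of 5.89 and 8.93. The second principal component, 28.4% of the variance, ran from -14.1 to -14.7 in the YKL-06-102 libraries and from 7.63 to 8.20 in the palbociclib libraries. All 10 genes written down as markers of MV4-11 cells were detected. Their summed level was 2270 to 2310 CPM (counts per 10⁶ counts of the library) in YKL-06-102 libraries and 2020 to 2090 CPM in palbociclib libraries. Summed marker levels use plain library totals, whereas CPM of single genes use totals after TMM scaling. Summed levels of lymphoid markers were 398 to 406 CPM with YKL-06-102 and 385 to 395 CPM with palbociclib, and CD2 and MS4A1 were at 0 in every library. Those of erythroid and megakaryocyte markers were 766 to 784 CPM with YKL-06-102 and 852 to 896 CPM with palbociclib, and 8 of 14, the globin genes HBA2, HBB and HBG1 and GATA1 among them, were at 0 throughout. Stromal and epithelial markers summed to 705 to 721 CPM with YKL-06-102 and 621 to 643 CPM with palbociclib, and COL3A1, DCN, EPCAM and KRT19 were at 0. VIM alone made up most of that sum, with means of 570 CPM with YKL-06-102 and 453 CPM with palbociclib. The part of these marker lists in the results below was not tested.

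Cells given YKL-06-102 kept more RNA of the E2F-driven replication genes than cells given palbociclib, had several-fold more RNA of single genes such as TREM2, SIGLEC1 and FCGRT, and several-fold less of others such as C11orf95 and TK2. Myeloid surface receptors as a list were divided, with 20 of 62 higher and 17 lower. Of the 14214 tested genes 3507, or 24.7%, passed an adjusted p of 0.05 in edgeR's quasi-likelihood test with Benjamini-Hochberg adjustment, and such genes are called changed here. Of these, 1812 (12.7% of tested genes) were higher and 1695 (11.9%) were lower with YKL-06-102. The median size of a called change was 0.24 on the log2 scale, and the median log2 fold change of all tested genes was -0.01, a value near 0 whose sign varied between settings. At least 1.5-fold, 414 genes were higher and 190 lower, and at least 2-fold, 161 were higher and 65 lower. All 3 YKL-06-102 libraries lay above all 3 palbociclib libraries for 2861 genes (20.1%) and below them for 2972 (20.9%). For 9832 of the 10368 genes whose average log2 CPM was 2 or more (94.8%), the 95% interval of the difference stayed within 1.5-fold either way. The number of lower genes depended on single libraries: it was 1055 without YKL-06-102 replicate 2, 1028 without YKL-06-102 replicate 3 and 1053 without palbociclib replicate 2.

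**Figure D1:**
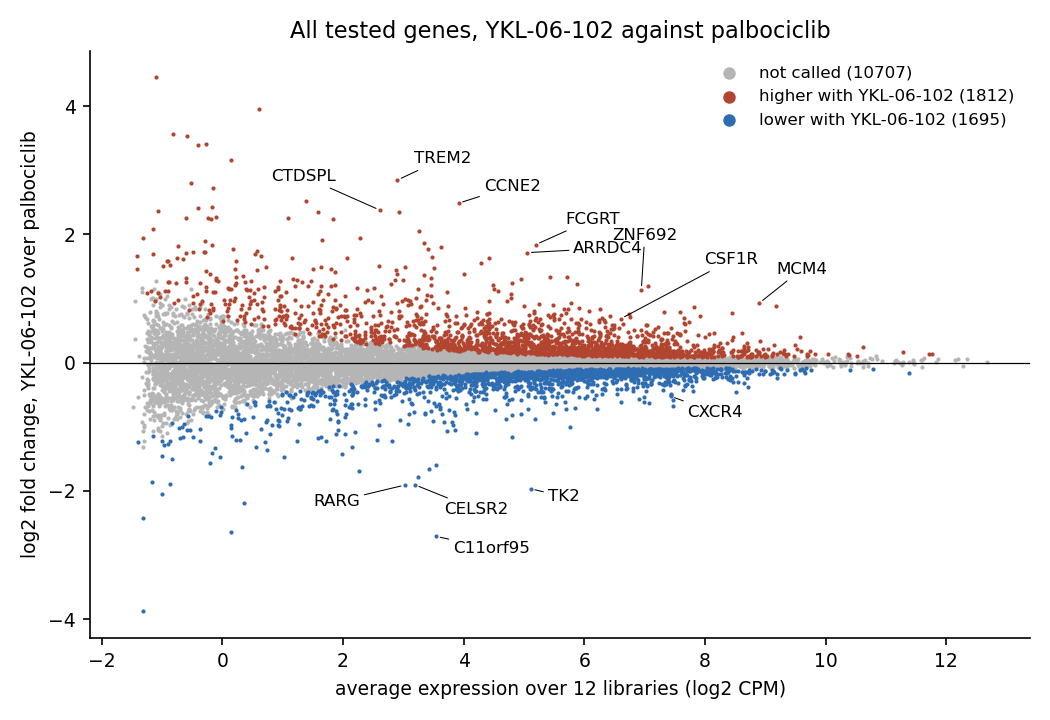
Log2 fold change of YKL-06-102 over palbociclib (vertical axis) against average expression over 12 libraries in log2 CPM (horizontal axis), with 1 point for each of 14214 tested genes. Red points are the 1812 genes called higher with YKL-06-102 and blue points the 1695 called lower, at an adjusted p under 0.05; the labelled genes are described in the text.

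Against the vehicle, YKL-06-102 changed 5249 genes (36.9%), of which 2215 (15.6%) were higher and 3034 (21.3%) lower. Palbociclib changed 4731 genes against the vehicle (33.3%), with 2224 (15.6%) higher and 2507 (17.6%) lower. These 2 comparisons share the DMSO libraries, so their values are given side by side only. At least 2-fold, 220 genes were higher and 165 lower with YKL-06-102, while 39 were higher and 223 lower with palbociclib.

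The E2F and G1/S list, 88 genes of DNA replication and its control, held the most one-sided difference of the lists examined. The lists were chosen with earlier results of these data known, so counts of their members describe a list and do not test it. With YKL-06-102, 81 of 88 were called higher than with palbociclib and none lower, beside 12.7% and 11.9% of all tested genes, and the median log2 fold change was 0.46 (range -0.11 to 2.49) beside -0.01 over all tested genes. All 88 were called lower than in DMSO cells with YKL-06-102, and all 88 with palbociclib. Medians over DMSO were -0.97 for YKL-06-102 and -1.42 for palbociclib, so the replication genes had fallen under both compounds and less far under YKL-06-102. The number called higher stayed between 77 and 82 in the 14 alternative settings, with none lower in any of them, and at an unadjusted p under 0.05, 83 were higher and none lower.

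Among the regulators, E2F1, the activator that opens this programme, had 30.5, 28.2 and 30.2 CPM in the YKL-06-102 libraries, against 16.7, 14.8 and 15.7 CPM in the palbociclib libraries. The groups did not overlap, and both lay far under the DMSO mean of 90.8 ± 2.0 CPM (SD, n = 3 libraries). The difference between the compounds was 0.91 ± 0.058 on the log2 scale (standard error), or 1.88-fold, at an adjusted p of 5.39e-13 in edgeR's quasi-likelihood test. MYBL2, the B-MYB factor that carries the programme on towards mitosis, averaged 113 ± 2.0 CPM with YKL-06-102 and 75.2 ± 0.39 CPM with palbociclib. RBL1, the pocket protein p107 and itself an E2F target, differed by 0.53 and E2F8, a repressor of the family, by 0.64. The exception was E2F2, with 5.69, 5.93 and 6.67 CPM under YKL-06-102 and 6.01, 7.07 and 6.65 CPM under palbociclib: those groups overlapped, and both lay below a DMSO mean of 31.6 CPM.

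Among cyclins and kinases of S-phase entry, CCNE2, which encodes the E-type cyclin E2, showed the largest log2 fold change of the list. Its RNA stood at 10.6, 11.6 and 10.3 CPM with YKL-06-102, against 1.62, 1.77 and 2.46 CPM with palbociclib. The lowest YKL-06-102 library was thus well above the highest palbociclib library, and the DMSO mean of 45.6 ± 3.2 CPM was above both. The fold change over palbociclib was 5.60, or 2.49 ± 0.15 on the log2 scale (adjusted p = 1.65e-14 in edgeR's test), and the log2 fold changes over DMSO were -2.07 with YKL-06-102 and -4.56 with palbociclib. CCNE2 shares exonic bases with INTS8, which had 5.69 times as many counts and differed by 0.01 between the compounds (adjusted p = 0.90). CCNE1, the partner cyclin, had 15.8, 19.1 and 18.1 CPM with YKL-06-102 and 10.9, 11.2 and 11.3 CPM with palbociclib, a log2 difference of 0.66. CDK2, the kinase that both E cyclins activate, differed by 0.69, CDC25A, the phosphatase that activates CDK2, by 0.46, and DBF4, the activator of the replication kinase CDC7, by 0.02 (adjusted p = 0.83).

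The MCM genes encode the helicase that opens replication origins, and all 7 were called higher with YKL-06-102, with a median of 0.69 on the log2 scale. MCM4 stood at 420, 429 and 420 CPM in the YKL-06-102 libraries, against 225, 223 and 219 CPM in the palbociclib libraries. MCM2 had 204, 207 and 195 CPM with YKL-06-102 and 108, 109 and 115 CPM with palbociclib. In both genes every YKL-06-102 library lay above every palbociclib library and under every DMSO library, with DMSO means of 1009 and 470 CPM. The log2 differences were 0.93 ± 0.030 for MCM4 (adjusted p = 4.61e-19) and 0.87 ± 0.037 for MCM2 (adjusted p = 1.31e-16), both from edgeR's test, and those of MCM3, MCM5 and MCM6 were 0.64, 0.79 and 0.69. Medians of the 7 genes over DMSO were -1.22 with YKL-06-102 and -1.97 with palbociclib.

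Promoters of genes named here are shown because the E2F site is the element through which RB1 and E2F act. That of CDC20, described further on, is shown as an example of the CHR element of mitotic genes. Only promoters with matches are shown, and those of other named genes, such as CCNE1, CDC45, ORC1 and MYBL2, held no E2F match. Sequences are from RefSeq on GRCh38.p14, 5′ to 3′ on the strand of the gene, from 250 bases before the start site to 50 bases after. Capitals in the E2F1, MCM2, MCM3 and MCM6 promoters mark matches to TTTCCCGC, TTTGGCGC, TTTCGCGC or TTTGCCGC on either strand, and capitals in CDC20 mark TTTGAA or TTCGAA on either strand. Coordinates are chr20:33686336-33686635 (minus strand) for E2F1, chr3:127598161-127598460 (plus) for MCM2, chr6:52284693-52284992 (minus) for MCM3, chr2:135876394-135876693 (minus) for MCM6 and chr1:43358731-43359030 (plus) for CDC20.
E2F1: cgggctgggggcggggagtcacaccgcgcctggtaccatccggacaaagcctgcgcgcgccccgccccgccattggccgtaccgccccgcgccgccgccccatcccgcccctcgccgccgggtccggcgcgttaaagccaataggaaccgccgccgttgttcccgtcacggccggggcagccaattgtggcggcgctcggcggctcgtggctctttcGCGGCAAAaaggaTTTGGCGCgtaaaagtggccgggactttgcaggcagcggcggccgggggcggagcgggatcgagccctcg
MCM2: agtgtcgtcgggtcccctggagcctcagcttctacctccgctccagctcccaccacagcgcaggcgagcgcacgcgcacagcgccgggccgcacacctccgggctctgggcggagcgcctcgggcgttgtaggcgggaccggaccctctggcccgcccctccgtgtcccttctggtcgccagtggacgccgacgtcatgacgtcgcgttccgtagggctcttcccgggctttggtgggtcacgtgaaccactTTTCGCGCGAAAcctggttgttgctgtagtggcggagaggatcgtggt
MCM3: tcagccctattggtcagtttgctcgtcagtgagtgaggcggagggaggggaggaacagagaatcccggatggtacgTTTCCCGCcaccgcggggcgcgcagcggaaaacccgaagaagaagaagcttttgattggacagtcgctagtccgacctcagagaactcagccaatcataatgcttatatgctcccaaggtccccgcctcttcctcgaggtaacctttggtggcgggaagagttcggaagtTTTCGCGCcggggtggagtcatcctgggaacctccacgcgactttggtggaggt
MCM6: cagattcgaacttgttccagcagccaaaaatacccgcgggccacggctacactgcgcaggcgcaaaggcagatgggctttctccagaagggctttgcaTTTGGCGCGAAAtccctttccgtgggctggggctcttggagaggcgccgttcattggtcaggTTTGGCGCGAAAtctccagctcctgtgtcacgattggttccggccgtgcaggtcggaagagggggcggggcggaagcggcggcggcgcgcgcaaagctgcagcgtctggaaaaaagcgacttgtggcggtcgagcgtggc
CDC20: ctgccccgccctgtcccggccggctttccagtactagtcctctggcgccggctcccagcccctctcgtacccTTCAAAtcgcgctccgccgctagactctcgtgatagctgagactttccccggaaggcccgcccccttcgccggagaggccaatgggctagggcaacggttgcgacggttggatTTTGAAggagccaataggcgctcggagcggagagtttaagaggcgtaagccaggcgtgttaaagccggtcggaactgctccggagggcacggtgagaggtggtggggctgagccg
With the base of the start site counted as 0, matches began at -33 and -20 in E2F1, at +2 and +6 in MCM2, at -174 and -4 in MCM3, and at -152, -148, -90 and -86 in MCM6. The match pair of MCM2 overlaps, as do the first pair and the second pair of MCM6, since each is a forward and a reverse match in a stretch of shared bases. In CDC20 the matches began at -178 and -65. An E2F match was present in 31 of 73 promoters found for the E2F and G1/S list (42.5%), beside 544 of 9748 promoters found for tested genes (5.58%) and 3.31% of all 35116 promoters. A CHR match was present in 45 of 64 promoters of the G2/M and mitosis list (70.3%), beside 11.1% for tested genes and 16.4% of all promoters. A match is a run of letters in this window and is not evidence of a bound factor.

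Origin licensing and helicase loading genes were called higher in 13 of 13 cases, with a median log2 fold change of 0.60. GINS2, a subunit of the replicative helicase complex, had 23.1, 21.5 and 20.8 CPM with YKL-06-102 and 11.0, 10.6 and 10.9 CPM with palbociclib, and the groups did not overlap. It shares exonic bases with GSE1, which had 5.14 times as many counts. CDC6 and CDT1, which load the MCM ring, differed by 0.83 and 0.72, ORC1, of the origin recognition complex, by 0.68, and CDC45, which joins the helicase at firing, by 0.75. Among DNA polymerases and clamp factors 18 of 19 were higher (median 0.38): PCNA, the sliding clamp, averaged 205 CPM with YKL-06-102 and 152 CPM with palbociclib, FEN1, the flap nuclease, whose exons overlap those of FADS2, differed by 0.52 and POLA1 by 0.24. The exception was PRIM2, a primase subunit, at 0.16 (adjusted p = 0.12).

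Nucleotide synthesis held 6 higher genes of 8, with a median of 0.35. TYMS, thymidylate synthase, differed by 0.60, RRM2, the regulated subunit of ribonucleotide reductase, by 0.42 and TK1, the cytosolic thymidine kinase, by 0.42. DCK and CTPS1 were not called, at -0.07 and 0.03. Chromatin assembly and DNA methylation genes were higher in 8 of 9 cases (median 0.49): CHAF1B, of the histone chaperone CAF-1, differed by 0.96 (it shares exonic bases with MORC3, which had 3.37 times as many counts) and UHRF1, which guides maintenance methylation, by 0.51, while NASP, another histone chaperone, stood at -0.04 (adjusted p = 0.40). In repair and checkpoint 17 of 18 were higher (median 0.41). The uracil glycosylase UNG had 39.8, 41.9 and 40.8 CPM with YKL-06-102 and 20.3, 21.3 and 22.5 CPM with palbociclib, WDR76 differed by 1.07 and BRCA1, of homologous recombination, by 0.38. BRCA2 was not called at 0.16, and was called with no filter on low counts, in a fit of the 2 groups alone and without DMSO replicate 2.

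**Figure D2:**
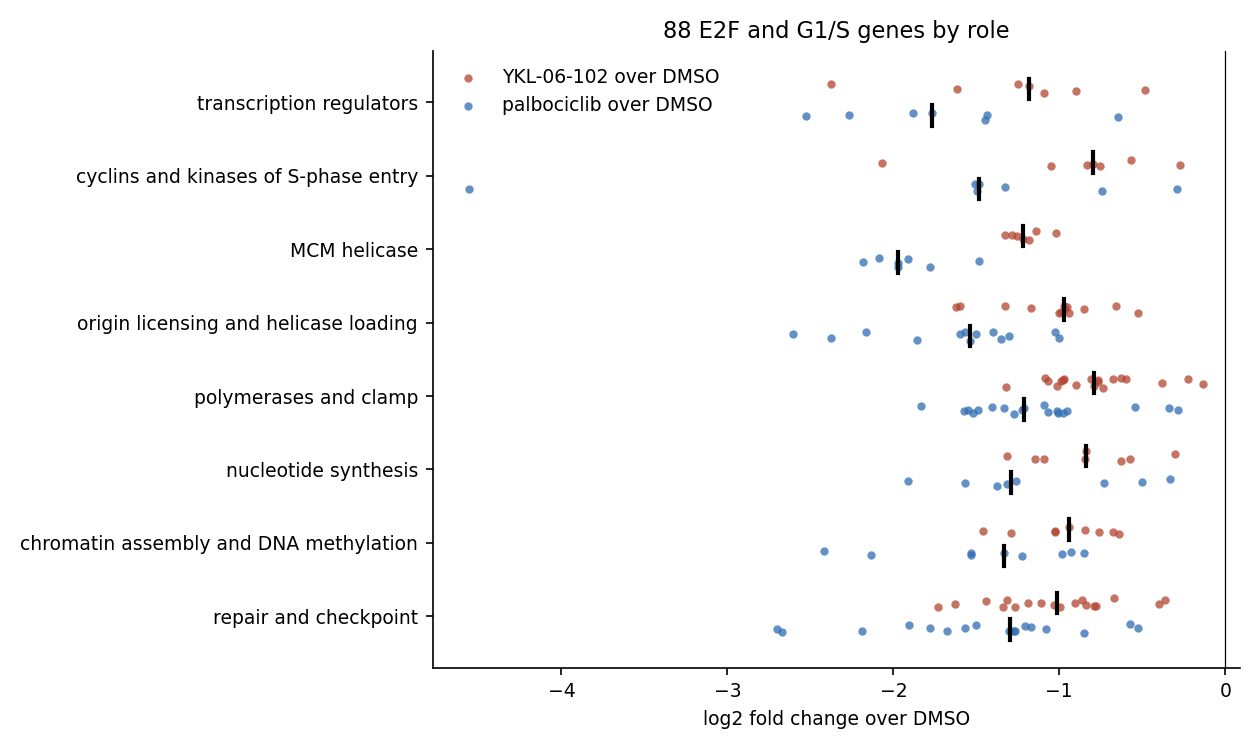
Log2 fold change over DMSO (horizontal axis) of the 88 E2F and G1/S genes, grouped by role, with red points for YKL-06-102 over DMSO above blue points for palbociclib over DMSO and a black bar at each median. In all 8 roles the YKL-06-102 median lies nearer to 0, as for the MCM helicase at -1.22 with YKL-06-102 and -1.97 with palbociclib; both sets share the 3 DMSO libraries.

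Genes of G2/M and mitosis, whose peak comes later in the cycle, differed less. With YKL-06-102, 44 of 75 (58.7%) were called higher than with palbociclib and none lower, beside 12.7% and 11.9% of all tested genes. The median log2 fold change was 0.15. At an unadjusted p under 0.05, 52 were higher and none lower. Medians over DMSO were -0.35 with YKL-06-102, where 71 of 75 were called lower, and -0.49 with palbociclib, where all 75 were. By role, mitotic kinases and cyclins were higher in 13 of 17 cases, chromosome condensation and exit genes in 12 of 17, spindle and kinesin genes in 12 of 24 and kinetochore genes in 7 of 17.

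CDC20, the activator of the anaphase-promoting complex, stood at 184, 188 and 182 CPM in YKL-06-102 libraries, against 147, 147 and 150.5 CPM in palbociclib libraries. All YKL-06-102 libraries lay above the palbociclib libraries and within a few CPM of the DMSO mean of 181 ± 5.6. The log2 difference was 0.32 ± 0.032 (adjusted p = 5.93e-09 in edgeR's test), and over DMSO it was 0.03 with YKL-06-102 (adjusted p = 0.50) and -0.29 with palbociclib. CDC20 was not typical here: 71 of 75 genes of the list were called lower than DMSO with YKL-06-102. MELK differed by 0.60, AURKB, the kinase of the chromosomal passenger complex, by 0.43, CCNF, cyclin F, by 0.32 and FOXM1, a transcription factor of the mitotic programme, by 0.31. CDK1 and PLK1 differed by 0.17 each, MKI67 by 0.19 and CCNB1 by 0.10, a call lost without palbociclib replicate 1. BUB1 and CENPF, at 0.00 and -0.01, were not called, and TOP2A, at 0.09, missed the threshold with an adjusted p of 0.051 but passed it in 8 of 14 alternative settings, among them those without YKL-06-102 replicate 3 and without palbociclib replicate 2.

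**Figure D3:**
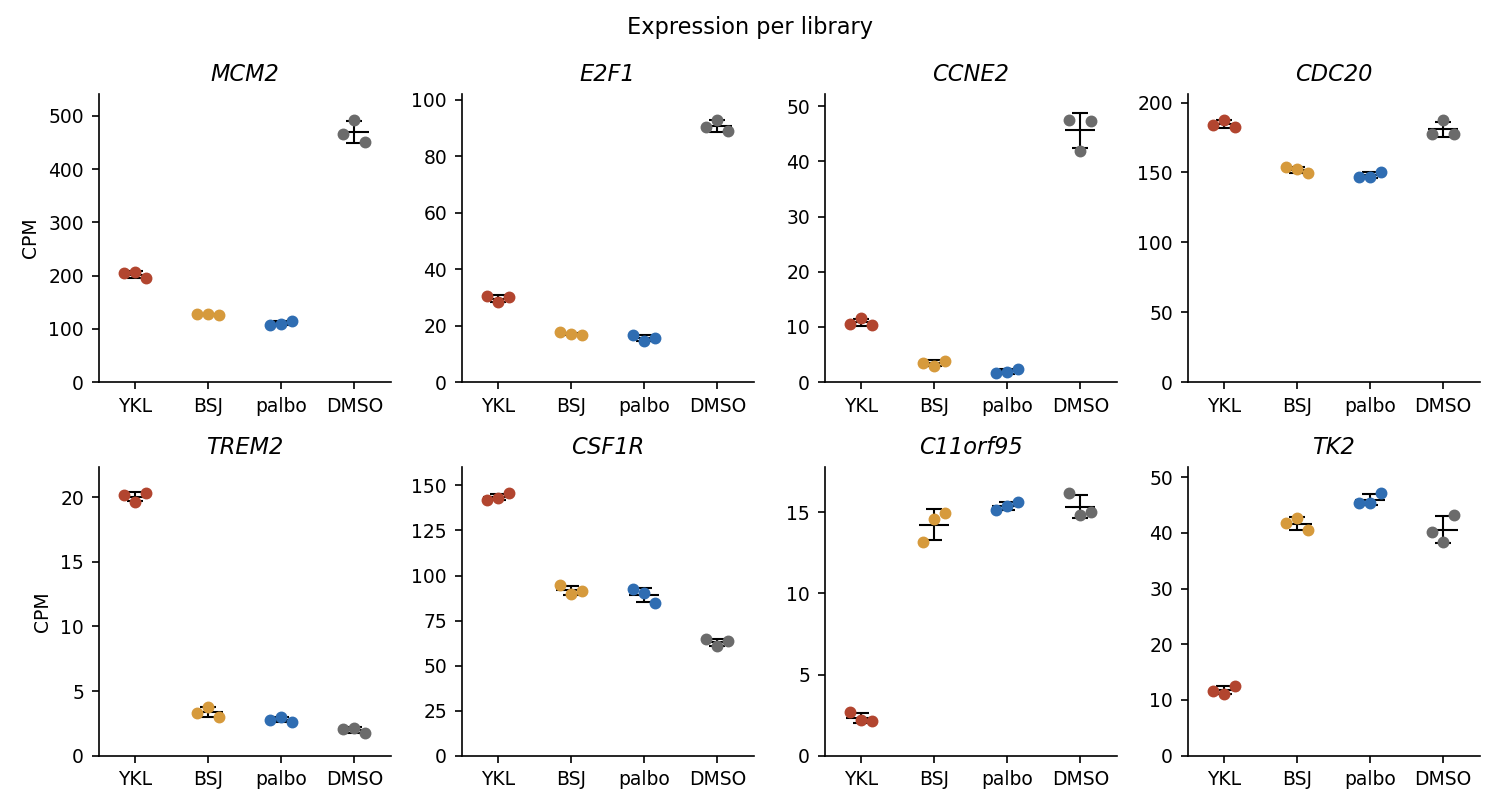
CPM in each library (points), with the mean and SD of the 3 libraries of each group (black bars), for 8 genes; every vertical axis starts at 0, and YKL and palbo stand for YKL-06-102 and palbociclib, BSJ for BSJ-03-123. YKL-06-102 lies between palbociclib and DMSO for MCM2, E2F1 and CCNE2, near DMSO for CDC20, above all other groups for TREM2 and CSF1R, and below them for C11orf95 and TK2. CDC20 is not typical of the G2/M and mitosis list, in which 71 of 75 genes were called lower than DMSO with YKL-06-102.

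RNA of the kinases that the compounds are directed at differed little. CDK6 stood at 508, 485 and 504 CPM with YKL-06-102 and 498, 478 and 496 CPM with palbociclib, groups that overlapped, with a log2 difference of 0.02 and a 95% interval of -0.05 to 0.09 (adjusted p = 0.67 in edgeR's test). Both were called above the DMSO mean of 446 CPM, by 0.16 for YKL-06-102 and 0.14 for palbociclib. CDK4 averaged 216 ± 4.2 CPM with YKL-06-102 and 203 ± 1.2 CPM with palbociclib, a log2 difference of 0.09 that passed at an adjusted p of 0.040 and missed the threshold without YKL-06-102 replicate 1 or 2, without palbociclib replicate 1 or 3, and with library totals as the scale. The list of cyclin D, CDK4/6, RB and CDK inhibitor genes had 10 of 36 members higher (27.8%) and 3 lower (8.33%). Over all tested genes the shares were 12.7% and 11.9%. CCND2 had 63.8, 60.2 and 65.1 CPM with YKL-06-102 and 49.4, 49.8 and 50.5 CPM with palbociclib, both above a DMSO mean of 37.4 CPM, and CCND3 differed by 0.17. CDKN1A, the CDK inhibitor p21, averaged 51.3 ± 0.47 CPM with YKL-06-102 and 40.1 ± 2.2 CPM with palbociclib, a log2 difference of 0.36. RB1 itself was lower by 0.12 on the log2 scale, a call lost without any 1 of the 6 libraries compared, without DMSO replicate 2, with DESeq2 or its size factors and with no filter, and the number of lower genes on the list was 0 without YKL-06-102 replicate 3 or palbociclib replicate 2.

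The highest fold changes were of another kind. Among called genes whose log2 CPM averaged 2 or more and whose groups did not overlap, TREM2 came first, a receptor of macrophages and microglia that binds lipids. It lies at chr6:41158506-41163186 (GENCODE 29, GRCh38) on the minus strand. TREM2 had 20.2, 19.6 and 20.3 CPM in the YKL-06-102 libraries, against 2.76, 2.96 and 2.60 CPM in the palbociclib libraries. Levels with BSJ-03-123 (mean 3.37 CPM) and DMSO (2.0 ± 0.23 CPM) were near those with palbociclib, so YKL-06-102 alone stood apart among the 4 groups measured. The difference was 7.20-fold, or 2.85 ± 0.11 on the log2 scale, at an adjusted p of 5.57e-19 in edgeR's quasi-likelihood test.

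Further surface proteins followed. FCGRT, the heavy chain of the neonatal Fc receptor, had 79.4, 77.1 and 80.5 CPM with YKL-06-102 and 21.6, 21.7 and 23.0 CPM with palbociclib. SIGLEC1, the sialic acid receptor sialoadhesin of macrophages, had 20.8, 21.0 and 23.5 CPM with YKL-06-102 and 6.01, 6.23 and 5.69 CPM with palbociclib. These genes did not overlap between the groups, as their selection required, and their differences were 3.58-fold and 3.64-fold. IL7R, the interleukin-7 receptor chain, differed by 2.05 on the log2 scale, NRP1, a co-receptor of semaphorins and VEGF, by 1.80, ANPEP, aminopeptidase N or CD13, by 1.64, CD209, the lectin DC-SIGN, by 1.63 and the water and glycerol channel AQP3 by 1.55. LGALS3BP, a secreted glycoprotein, differed by 1.94 and FRMD4A by 1.78.

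Regulators of signalling were also among the 15 highest. CTDSPL, a small phosphatase reported to act on RB1, had 11.5, 13.2 and 13.2 CPM with YKL-06-102 and 2.80, 2.21 and 2.22 CPM with palbociclib, and the DMSO mean of 5.30 CPM lay between the groups. ARRDC4, an alpha-arrestin, had 69.7, 71.5 and 70.1 CPM with YKL-06-102 and 21.2, 21.6 and 21.6 CPM with palbociclib, against a DMSO mean of 14.3 CPM. Its difference of 1.71 ± 0.047 on the log2 scale had an adjusted p of 1.26e-20 in edgeR's test. PPP1R13L, the p53-binding protein iASPP, differed by 2.35, and it shares exonic bases with CD3EAP, which had 11.6 times as many counts and differed by -0.29. Where genes overlap, reads of the partners may not be told apart, as the strand setting of the counting is not given in the sources used here.

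Some genes of low level had larger fold changes, and they were chosen after their values were seen. SERPINB2, plasminogen activator inhibitor 2, averaged 4.43 ± 0.26 CPM with YKL-06-102 and 0.282 ± 0.075 CPM with palbociclib. SIGLEC11 averaged 2.07 CPM with YKL-06-102 and 0.188 CPM with palbociclib, and TREML1, a relative of TREM2, 2.23 CPM with YKL-06-102 and 0.199 CPM with palbociclib. In each of the 3 the lowest YKL-06-102 library was above the highest palbociclib library. At these levels a palbociclib library held only a handful of reads, and the fold changes are correspondingly imprecise, with a 95% interval of 3.29 to 4.63 on the log2 scale for SERPINB2.

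Fewer genes were strongly lower. C11orf95, a zinc finger gene also known as ZFTA at chr11:63759892-63768775 on the minus strand, had 2.70, 2.18 and 2.14 CPM with YKL-06-102, against 15.2, 15.4 and 15.6 CPM with palbociclib. Means were 14.2 CPM with BSJ-03-123 and 15.4 CPM with DMSO, so the 3 YKL-06-102 libraries alone were low. The difference was -2.71 ± 0.12 on the log2 scale (adjusted p = 7.91e-18 in edgeR's test), or 6.55-fold lower. TK2, the thymidine kinase of mitochondria at chr16:66508003-66552544, had 11.5, 11.1 and 12.5 CPM with YKL-06-102 and 45.4, 45.4 and 47.1 CPM with palbociclib, beside a DMSO mean of 40.6 CPM. It was 3.91-fold lower, whereas the cytosolic kinase gene TK1 was among the replication genes that were higher.

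RARG, a retinoic acid receptor, had 3.52, 2.90 and 2.68 CPM with YKL-06-102 and 10.0, 11.3 and 13.1 CPM with palbociclib. F2R, the thrombin receptor PAR1, had 5.28, 4.69 and 4.70 CPM with YKL-06-102 and 13.9, 15.2 and 15.6 CPM with palbociclib. Neither gene overlapped between the groups, as their selection required, and their log2 differences were -1.91 and -1.60. CELSR2, a cadherin of planar polarity, was lower by 1.91 on the log2 scale, UBASH3B, a tyrosine phosphatase of the STS family, by 1.78, the GTPase gene GIMAP1 by 1.69 and KLC2, a kinesin light chain, by 1.66. The remaining 7 of the 15 lowest were lower by 1.31 to 1.08: the prostaglandin E2 receptor PTGER2, MIEF2, BCL9, the tubulin carboxypeptidase VASH1, ZBED3, the syntaxin STX3 and the proton-sensing receptor GPR65.

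Myeloid surface receptors moved in both directions. Of 62 tested genes on that list, 20 were called higher and 17 lower with YKL-06-102. These are shares of 32.3% and 27.4%, beside 12.7% and 11.9% of all tested genes. The median log2 fold change was 0.02, or -0.01 without palbociclib replicate 3. Fc receptors were higher in 3 of 5 cases, lectins and TREM family genes in 8 of 20 with 3 lower, cytokine and growth factor receptors in 4 of 16 with 6 lower, integrins and adhesion genes in 4 of 15 with 5 lower, and Toll-like receptors in 1 of 6 with 3 lower. CSF1R, the receptor of the macrophage growth factor M-CSF, had 142, 143 and 146 CPM with YKL-06-102 and 92.3, 90.4 and 84.9 CPM with palbociclib. The groups were apart and both lay above the DMSO mean of 63.0 ± 1.9 CPM, with a log2 difference between the compounds of 0.69 ± 0.037 (adjusted p = 1.83e-14 in edgeR's test). FCGR2A, an activating IgG receptor with near-identical relatives on the same chromosome, differed by 1.31, CLEC10A, a lectin of macrophages and dendritic cells, by 0.90, TLR4, the receptor of lipopolysaccharide, by 0.89, LILRB1 by 0.64 and IL6R by 0.29. TYROBP, the adaptor through which TREM2 signals, was not called, at 0.03 (adjusted p = 0.68).

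On the lower side stood CXCR4, the chemokine receptor that holds cells in the bone marrow, with 123, 133 and 125 CPM under YKL-06-102 and 181, 186 and 181 CPM under palbociclib. Both groups were below the DMSO mean of 216 CPM, and YKL-06-102 was the lower. CD44, the hyaluronan receptor, was lower by 0.45 on the log2 scale, CD300LF by 0.44, the integrin chain ITGA4 by 0.36 and FLT3, the mutated receptor kinase of this line, by 0.23. PTPRC, the leukocyte phosphatase CD45, was lower by 0.50. TLR2 and its partner receptors TLR1 and TLR6 were lower by 0.19, 0.53 and 0.68, although TLR1 and TLR6 share exonic bases and the call for TLR2 was lost without YKL-06-102 replicate 3.

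**Figure D4:**
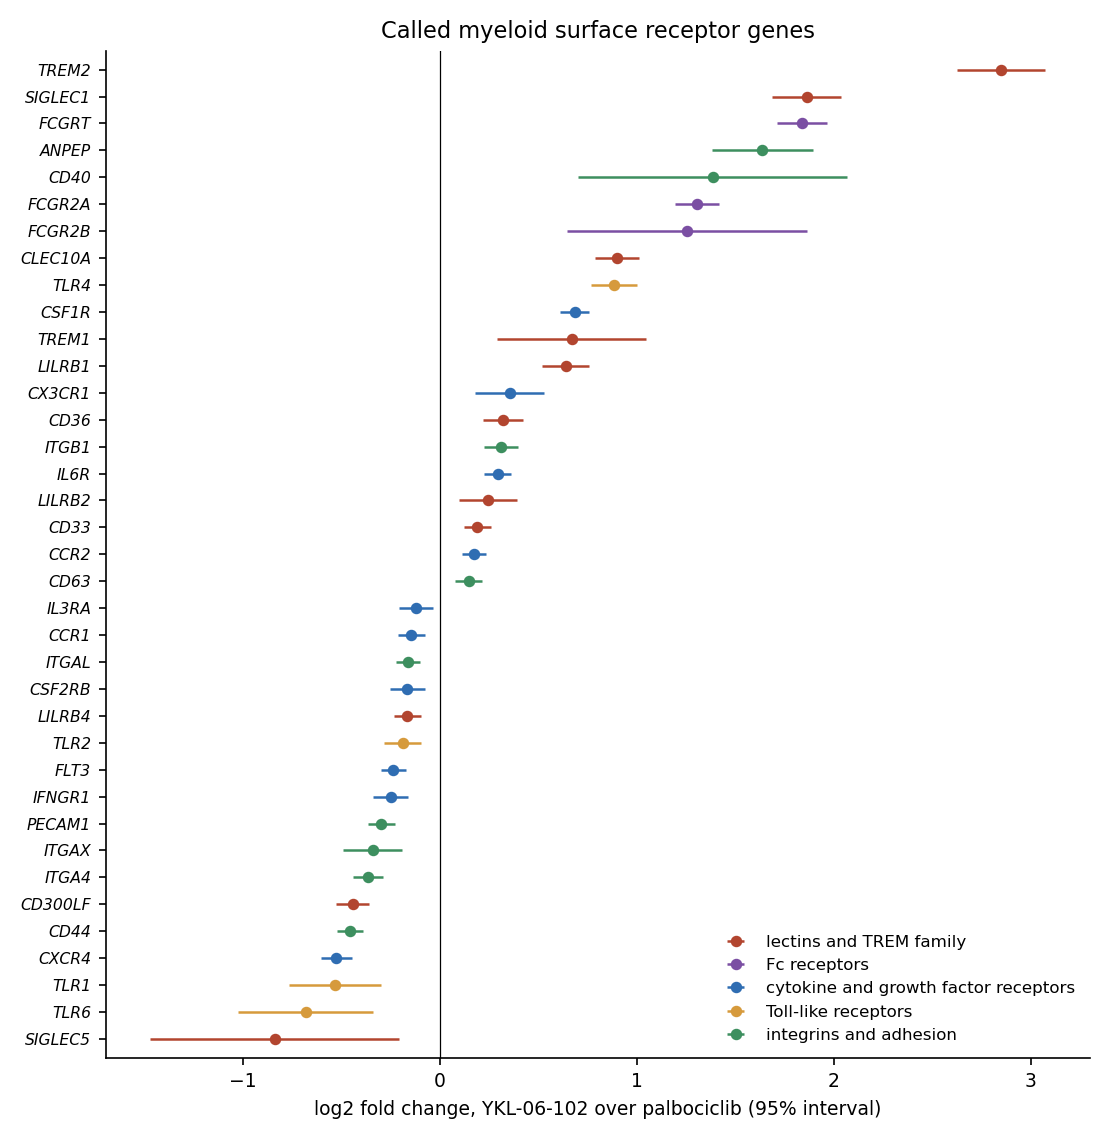
Log2 fold change of YKL-06-102 over palbociclib with 95% intervals (horizontal axis) for the 37 myeloid surface receptor genes that were called, coloured by class. The 20 higher genes reach 2.85 at TREM2 and the 17 lower genes reach -0.84; 25 further tested genes of the list were not called and are not drawn.

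Granule and secreted proteins of myeloid cells were higher in 8 of 18 cases (44.4%) and lower in 1 (5.56%), with a median of 0.11. Over all tested genes the shares were 12.7% and 11.9%. PRTN3, the granule protease proteinase 3, averaged 930 ± 20 CPM with YKL-06-102 and 705 ± 15 CPM with palbociclib, LYZ, lysozyme, differed by 0.28, CTSG by 0.27 and ELANE, neutrophil elastase, by 0.34, while AZU1 was called only without DMSO replicate 2 or in a fit of the 2 groups alone, at 0.07 here. S100A9, a calcium-binding protein of monocytes and neutrophils, averaged 5.23 ± 0.39 CPM with YKL-06-102 and 1.92 ± 0.36 CPM with palbociclib, and those groups did not overlap. The cathepsin gene CTSS was lower by 0.34. Of 21 myeloid transcription factors 8 were higher (38.1%) and 3 lower (14.3%). Without palbociclib replicate 1, 5 were higher. With palbociclib replicate 1 or 2 or any 1 YKL-06-102 replicate left out, 1 was lower. SPI1, the PU.1 factor of monocyte and macrophage genes, had 428, 439 and 444 CPM with YKL-06-102 and 323, 340 and 334 CPM with palbociclib, with the DMSO mean of 315 CPM near the palbociclib group. RARA, a retinoic acid receptor, differed by 0.35 and IRF8, a factor of monocyte and dendritic cell development, by 0.15. For the fusion targets of KMT2A none of 19 was higher and 3 were lower (15.8%), the lower share being near the 11.9% of all tested genes. The 3 were FLT3, BCL2 at -0.20 and MYB at -0.09. The call for MYB was lost without palbociclib replicate 1 or 2 or any YKL-06-102 replicate, with DESeq2 size factors and with no filter. At an unadjusted p under 0.05, without DMSO replicate 2 or with the 2 groups fitted alone, 1 of the 19 was higher.

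Genes of cereblon, its ligase and its reported substrates were called about as often as all tested genes, with ZNF692 and IKZF1 the members that held their call in all 14 alternative settings among those higher. CRBN averaged 24.8 CPM with YKL-06-102 and 26.2 CPM with palbociclib (log2 difference -0.09, adjusted p = 0.32 in edgeR's test), and it shares exonic bases with TRNT1, which had more counts. Among 10 ligase and neddylation genes none was higher and UBE2G1, a ubiquitin-conjugating enzyme that works with this ligase, was lower by 0.24. Among 23 reported substrates 5 were higher and 1 lower, shares of 21.7% and 4.35% beside 12.7% and 11.9% of all tested genes. ZNF692, a zinc finger gene of that set, had 181, 192 and 202 CPM with YKL-06-102 and 89.0, 88.5 and 84.4 CPM with palbociclib. It was 2.19-fold higher, or 1.13 ± 0.043 on the log2 scale (adjusted p = 1.23e-17 in edgeR's test), with BSJ-03-123 between the groups at 125 CPM and DMSO at 86.9 CPM. IKZF1, the lymphoid and myeloid factor Ikaros, averaged 467 ± 5.8 CPM with YKL-06-102 and 377 ± 4.0 CPM with palbociclib, against 406 CPM with DMSO. IKZF2 was higher by 1.11 at a level near 1 CPM, IKZF4 by 0.21 and WIZ by 0.11, while DTWD1 was lower by 0.23. These 4 calls rested on single libraries: that of IKZF2 was lost without YKL-06-102 replicate 2 or palbociclib replicate 2 or 3, that of IKZF4 without replicate 1 of either group or with DESeq2, that of WIZ without YKL-06-102 replicate 3 or palbociclib replicate 1 or 3 or with library totals, and that of DTWD1 without YKL-06-102 replicate 3 or palbociclib replicate 2. These are RNA values, and protein was not measured.

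Of 13 genes linked to IKZF1 and IKZF3 in the literature of thalidomide-type drugs, 3 were higher and 6 lower. These are shares of 23.1% and 46.2%, beside 12.7% and 11.9% of all tested genes. The number called lower moved with the setting: it was 4 with DESeq2 and without any 1 of the 6 libraries compared. It was 5 with DESeq2 size factors or no filter. IL7R and ITGB5, an integrin chain, were higher by 2.05 and 0.88. IL2RA, the interleukin-2 receptor chain, was lower by 0.96, CD38 by 0.56, IRF4, a factor of plasma cells and lymphocytes, by 0.37 and ITGB7 by 0.30. MYC, with 504, 516 and 527 CPM under YKL-06-102 and 530, 545 and 517 CPM under palbociclib, overlapped between the groups and was not called (log2 difference -0.04, adjusted p = 0.43).

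Sterol and fatty acid synthesis genes were higher in 18 of 34 cases (52.9%) and lower in 3 (8.82%). Over all tested genes the shares were 12.7% and 11.9%, and the median log2 fold change of the list was 0.10. FADS1, a desaturase of polyunsaturated fatty acids, had 301, 306 and 290 CPM with YKL-06-102 and 184, 184 and 175 CPM with palbociclib, groups that did not overlap. The YKL-06-102 libraries were close to the DMSO mean of 288 CPM and not called from it (adjusted p = 0.16), and palbociclib was 0.67 below it on the log2 scale. FADS2, which shares exonic bases with FADS1, differed by 0.61 between the compounds. SCD, the stearoyl desaturase, differed by 0.27, SQLE and FDFT1, enzymes of squalene synthesis and oxidation, by 0.17 each and SREBF1, a transcription factor of lipid synthesis, by 0.19. NR1H3, the sterol-sensing receptor LXR alpha, had 16.6, 15.3 and 16.1 CPM with YKL-06-102 and 5.69, 5.74 and 5.69 CPM with palbociclib. It shares exonic bases with ACP2, which had 3.19 times as many counts and was not called at 0.06. The number of higher genes on this list ran from 12 to 20 over the alternative settings, and that of lower genes was 1 without YKL-06-102 replicate 2 or 3 or palbociclib replicate 2.

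Counts of the other lists stand beside 12.7% higher and 11.9% lower over all tested genes. Heat shock and chaperone genes were higher in 5 of 23 cases (21.7%) and none was lower. There were 2 lower at an unadjusted p under 0.05, with library totals, with limma-voom or with the 2 groups fitted alone. HSPA1A, an inducible HSP70 with the near-identical copy HSPA1B, averaged 209 ± 2.1 CPM with YKL-06-102 and 137 ± 3.4 CPM with palbociclib. Both lay under its DMSO mean of 285 CPM, and HSPB1 differed by 0.32. Antigen presentation had 4 of 10 class II genes higher, CIITA, their activator, by 0.70 and HLA-DMA by 0.46 (it shares exonic bases with BRD2, which had 18.7 times as many counts), and 1 of 14 class I genes higher with 4 lower. NF-kappaB and cytokine genes were higher in 6 of 20 cases (30.0%) and lower in 1 (5.0%). TNF stood at 31.8, 30.7 and 30.1 CPM with YKL-06-102 and 16.7, 17.2 and 21.1 CPM with palbociclib, which did not overlap.

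Interferon-stimulated genes were higher in 1 of 31 cases (3.23%), OAS3 at 0.73, and lower in 5 (16.1%), IRF1 at -0.33 among them. Over all tested genes the shares were 12.7% and 11.9%. STAT5 targets split into 4 higher (26.7%) and 5 lower (33.3%) of 15. SOCS3, a feedback inhibitor of cytokine signalling, stood at 0.58 and PIM2, a survival kinase, at -0.31. MondoA and alpha-arrestin genes were higher in 2 of 10 cases and lower in 5: TXNIP, the arrestin most often used as the readout of MondoA, had 432, 436 and 430 CPM with YKL-06-102 and 484, 474 and 489 CPM with palbociclib, so it lay below palbociclib while its relative ARRDC4 lay above. Both compounds held TXNIP above the DMSO mean of 337 CPM.

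Lysosome genes were higher in 7 of 38 cases (18.4%) and lower in 3 (7.89%), beside 12.7% and 11.9% of all tested genes. Glycolysis and pentose phosphate genes were higher in 6 of 29 (20.7%) and lower in 4 (13.8%). The BCL2 family had 3 of 13 higher (23.1%) and 1 lower (7.69%). ATF4 and amino acid response genes had 5 of 28 higher (17.9%) and 1 lower (3.57%). Among these TFE3, a regulator of lysosomal genes, differed by 0.41, PFKFB2, an enzyme that tunes glycolysis and overlaps YOD1, by -0.90, BCL2L2, a survival protein, by 0.60 and DDIT4, an inhibitor of mTORC1, by -0.70. DDIT4 averaged 10.0 CPM with YKL-06-102 and 16.3 CPM with palbociclib, beside 9.06 CPM with DMSO. Genes of p53 were higher in 3 of 25 cases and lower in 3, MAPK and immediate-early genes in 2 of 25 and 2, and MYC, MAX and MXD genes in 3 of 12 and 2. Ribosome biogenesis had 7 of 43 lower (16.3%) and none higher (1 at an unadjusted p under 0.05). The number of lower genes depended on single libraries. It was 4 and 2 without YKL-06-102 replicates 1 and 2, and 3 without palbociclib replicate 1. It was 1 without YKL-06-102 replicate 3 or palbociclib replicate 2. The one-sidedness did not hold either: without DMSO replicate 2 there were 3 higher and 4 lower, with the 2 groups fitted alone the counts were 2 higher and 10 lower, and 1 was higher with DESeq2, with its size factors and without YKL-06-102 replicate 3. None of 30 cytosolic ribosomal protein genes and none of 13 mitochondrially encoded genes was called in either direction by edgeR. At an unadjusted p under 0.05 edgeR had 1 ribosomal protein gene higher and 1 lower and none of the mitochondrial genes. DESeq2 called none of the ribosomal protein genes, and without DMSO replicate 2 edgeR called 5 of them higher. With no filter or with the 2 groups fitted alone it called 2 of them higher, and without YKL-06-102 replicate 1 it called 1 lower. Of the mitochondrial genes 1 was called higher with no filter and 1 lower with the 2 groups fitted alone.

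The small counts of these lists moved with single libraries, and in the 7 settings that left out DMSO replicate 2 or 1 of the 6 libraries compared they covered the following ranges. Lower genes ranged from 1 to 4 for antigen presentation, 3 to 5 for interferon-stimulated genes, 3 to 5 for STAT5 targets, 3 to 4 for MondoA and alpha-arrestins, 0 to 1 for the MYC network, 0 to 3 for lysosome genes, 2 to 4 for glycolysis and 1 to 4 for p53 targets. Higher genes ranged from 4 to 9 for heat shock, 4 to 9 for ATF4, 6 to 12 for lysosome genes, 3 to 7 for the BCL2 family, 3 to 7 for glycolysis and 1 to 4 for interferon-stimulated genes.

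**Figure D5:**
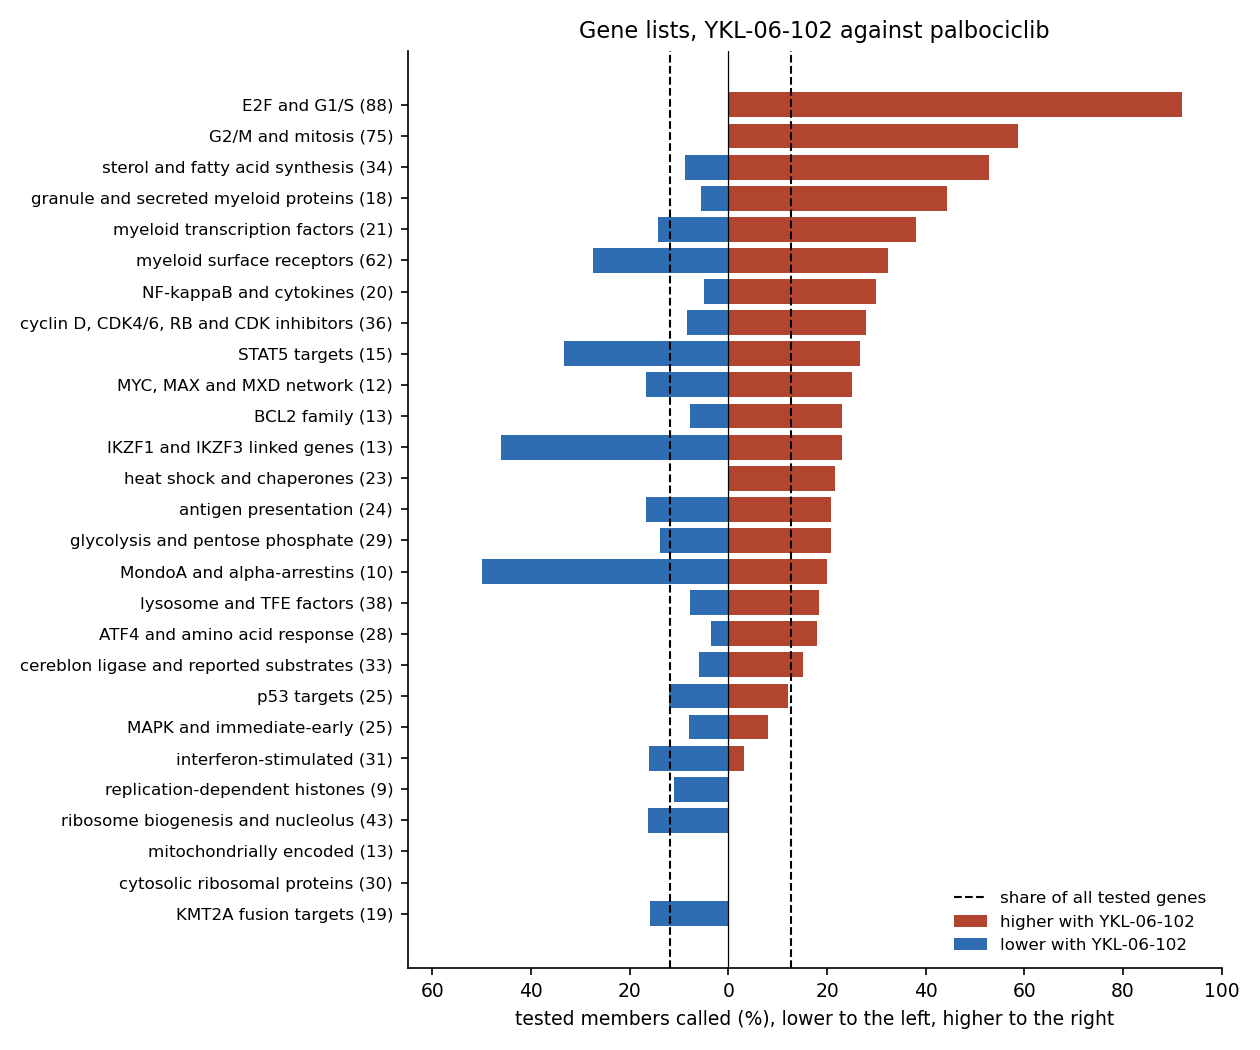
Share of tested list members called higher (red, to the right) or lower (blue, to the left) with YKL-06-102 than with palbociclib, in percent, with the number of tested members in parentheses. The dashed lines mark the shares over all tested genes, 12.7% higher and 11.9% lower; the E2F and G1/S list reaches 92.0% higher.

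BSJ-03-123, the other conjugate, stood much nearer to palbociclib. Against BSJ-03-123, YKL-06-102 had 2861 called genes (20.1%), of which 1476 (10.4%) were higher and 1385 (9.74%) lower, and 124 were higher and 45 lower by at least 2-fold. BSJ-03-123 against palbociclib had 22 called genes, 0.155% of those tested, all of them higher, and none reached 2-fold. That small number moved with single libraries: it was 4 without BSJ-03-123 replicate 2, 14 without its replicate 3, 6, 5 and 14 without palbociclib replicates 1, 2 and 3, and 116 without DMSO replicate 2, which enters the shared estimate of the spread. These comparisons share libraries, so each gene's own values are given side by side.

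Of the 88 E2F and G1/S genes, 76 were called higher and 1 lower with YKL-06-102 than with BSJ-03-123 (median 0.34), and 10 were called higher with BSJ-03-123 than with palbociclib (median 0.10). CCNE2 differed by 1.65 between YKL-06-102 and BSJ-03-123 and by 0.84 between BSJ-03-123 and palbociclib, the largest of the 22. TCF19, a G1/S gene that was on no list and was chosen after its values were seen, had 46.8, 46.4 and 46.5 CPM with YKL-06-102 and 18.4, 18.5 and 18.6 CPM with palbociclib, and means of 22.6 ± 1.7 CPM with BSJ-03-123 and 85.4 ± 3.1 CPM with DMSO. SERPINH1, the collagen chaperone HSP47, chosen in the same way, had 217, 218 and 214 CPM with YKL-06-102 and 93.7, 96.6 and 94.7 CPM with palbociclib, with a BSJ-03-123 mean of 110 ± 1.6 CPM. For FCGRT, SIGLEC1, C11orf95 and TK2 the log2 differences between YKL-06-102 and BSJ-03-123 were 1.80, 1.80, -2.60 and -1.83, and those between BSJ-03-123 and palbociclib, 0.04, 0.06, -0.11 and -0.14, did not pass the test. IL7R was among the 22 called genes, higher by 0.63 with BSJ-03-123 than with palbociclib (adjusted p = 0.0069 in edgeR's test). It was higher again by 1.42 with YKL-06-102 than with BSJ-03-123.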

How the data were processed

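RNA of 12 MV4-11 libraries, in 4 groups of 3, was selected by polyadenylation and prepared with a stranded kit, per the labels' protocols. The values are raw read counts per Ensembl gene, as the authors deposited them. The submitters' processing notes name Trimmomatic 0.36, STAR 2.5.2b, HTSeq and the build hg38, in no stated order; the annotation release and the strand setting of the counting are both not given in the sources used here. GENCODE 29 gave names to 57447 of the 58051 gene IDs.

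From the counts, genes were kept by edgeR's filterByExpr (minimum count 10, minimum total 15), libraries were scaled by TMM, and a quasi-likelihood model of all 12 libraries was fitted with edgeR 4.0.16 in R 4.3.3 (8 residual degrees of freedom). Tests were 2-sided and p-values were adjusted over 14214 genes by the Benjamini-Hochberg method. CPM values use TMM-scaled library totals, except the summed marker levels, which use plain totals. They are not corrected for gene length, so they are not compared between genes. Fold changes carry a prior count of 0.125, which shrinks those of low genes slightly. Intervals are 95% Wald intervals. Tested genes hold 99.9% of all counts, and the common biological coefficient of variation was 3.08%. The fit was tested on simulated counts.

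Named genes are the 15 highest and 15 lowest called genes (log2 CPM averaging 2 or more, no overlap between YKL-06-102 and palbociclib), the 5 members of each list with the lowest p among those called, and a fixed set of cell cycle genes and line markers. The following were chosen after their values were seen: AZU1, BRCA1, BRCA2, BUB1, CCNB1, CD300LF, CD44, CDC25A, CDC45, CDC6, CDK1, CDK2, CDT1, CENPF, CHAF1B, CLEC10A, CTPS1, CTSG, CXCR4, DBF4, DCK, E2F2, E2F8, FDFT1, FEN1, GINS2, IKZF4, IL6R, ITGA4, LILRB1, MKI67, MYBL2, NASP, ORC1, PCNA, PLK1, POLA1, PRIM2, RRM2, SERPINB2, SERPINH1, SIGLEC11, SQLE, SREBF1, TCF19, TK1, TLR1, TLR2, TLR4, TLR6, TOP2A, TREML1, TYMS, TYROBP, UHRF1, UNG, WDR76 and WIZ. Some genes that the rule names are not reported here. The comparison, the gene lists and the rule were chosen with earlier results of these data known. Exonic overlap is between annotated exons on either strand. Alternatives were other scalings, no filter, DESeq2 1.42.0, limma-voom (limma 3.58.1), a fit of 2 groups, a replicate block and leaving out single libraries.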

Additional observations from a re-analysis of the deposited data

How the results depend on the processing

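No called gene among those named changed direction in the 14 alternative settings, but values near 0 changed sign: the median log2 fold change of all tested genes, -0.01, reached 0.01 without YKL-06-102 replicate 2, and that of the myeloid surface receptors, 0.02, was -0.01 without palbociclib replicate 3. The balance of higher against lower calls turned with library totals (1689 higher, 1894 lower). The 3507 genes called between YKL-06-102 and palbociclib stayed within 1.5 times under every alternative, but those called lower ranged from 1028 to 1463 without single libraries of the 2 groups, and were 1593 without DMSO replicate 2. The 22 genes called between BSJ-03-123 and palbociclib became 64 with no filter on low counts, 43 with DESeq2, 64 when those 2 groups were fitted alone and 116 without DMSO replicate 2, and ranged from 4 to 15 without single libraries of those groups; the cause was not tested. Of the called genes the share that was higher with YKL-06-102 was 51.7% with TMM, 57.1% with DESeq2 size factors and 47.1% with library totals, and these scalings shifted the median log2 fold change of all genes by 0.01 and -0.01. It was 59.0% with DESeq2, 57.0% with no filter, 61.4% without DMSO replicate 2, and 63.3%, 63.0% and 63.2% without YKL-06-102 replicate 2, YKL-06-102 replicate 3 and palbociclib replicate 2. Replicate numbers did not pair the libraries (correlations of same-numbered deviations -0.04, 0.03 and 0.02), and a fit with the replicate number as a block called 1808 genes higher and 1692 lower. Of 155 genes named by rule, 128 of the 149 called ones kept their call in all 14 settings and none reversed. A further 66 genes were chosen after their values were seen, and not all of them are reported here. Of those 66, 44 of the 50 called ones kept their call in all 14 settings. At this depth genes below about 2 on the log2 CPM scale have wide intervals.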
